A study of Caenorhabditis elegans with 2 samples.

Results

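The vacuolar ATPase subunit genes vha-1, vha-2, vha-3, vha-4, vha-5, vha-6, vha-7, vha-8, vha-12 and vha-13 of Caenorhabditis elegans were described as sites of ALR-1-GFP signal. They are 10 of the 19973 nuclear protein-coding genes of the annotation. A region was assigned to a gene when its summit lay in the gene or up to 1500 bp upstream of its 5′ end. The genes were selected on the signal ranks of these same lists, so the ranks and counts given describe them and no test was made. ALR-1 is a transcription factor with a homeodomain, of the aristaless family, and was immunoprecipitated with an antibody against GFP. The animals were whole L1 larvae of strain OP362, genotype unc-119(tm4063) III; wgIs362, a mixed sex population (pooled male and female) aged 6 hours and starved after bleaching. The strain stably carries ALR-1 with a C-terminal GFP-FLAG tag, called alr-1-eGFP elsewhere in the labels, and both the tag and the unc-119 allele were present in every sample. What promoter drives the transgene, and how many copies there are, is not given in the sources used here. There was 1 group with 2 biological replicates, and no second genotype, stage or feeding state, so nothing here compares conditions. Because whole larvae were used, signal in few cells at high level and signal in many cells at low level cannot be told apart.

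The deposited files are ranked lists of regions. Each replicate has a list of 30000 regions, another list of 30000 regions was made from the pooled replicates, and 182 regions passed an irreproducible discovery rate (IDR) threshold. The list signal is the value the authors' peak caller gave each region, and it was used for ranks within a list, with rank 1 the highest. Pooled signals ran from 42.2 to 204 with a median of 53.3, replicate 1 signals from 21.8 to 102 and replicate 2 signals from 23.3 to 102. A gene without a listed summit may therefore still have signal below the lowest listed value. Read depth is not known from these lists, so an interval beside a share covers only the counting of regions. Of the 30000 pooled summits, 18 fell in the 10 gene windows. A summit in vha-1 also lies upstream of vha-2, which makes 19 pairs of a gene and a summit. The replicate 1 list gave 19 summits and the replicate 2 list 18. All positions are 1-based in ce11, the same assembly as WBcel235.

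The vacuolar ATPase is a rotary proton pump that acidifies lysosomes, endosomes and secretory vesicles, and in some epithelia the space outside the cell. Its cytosolic V1 sector hydrolyses ATP in a ring of alternating A and B subunits, and its membrane V0 sector carries protons through a ring of c subunits that turns against the a subunit. In nematodes several subunits are encoded by more than one gene, and the a subunits differ in the tissues where they act, which include the intestine, the epidermis with the excretory cell, and neurons. The enzyme is also part of the lysosomal machinery that senses nutrients.

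The 201 bases centred on the strongest pooled summits are given 5′ to 3′ on the strand of the gene, with coding exon bases in capitals and intron bases in lower case, from the RefSeq copy of the WBcel235 genome. The windows of vha-2 and vha-13 hold the highest-ranked summits of the 10 genes. The vha-3 window was added, after its values were seen, because vha-3 encodes the same protein as vha-2, the vha-12 window because it holds the next highest rank, and the vha-15 window, from a subunit gene outside the 10, because it holds an IDR peak. The vha-2 window is chrIII:9782205-9782405 on the plus strand, with 156 coding bases followed by the start of intron 1.
vha-2: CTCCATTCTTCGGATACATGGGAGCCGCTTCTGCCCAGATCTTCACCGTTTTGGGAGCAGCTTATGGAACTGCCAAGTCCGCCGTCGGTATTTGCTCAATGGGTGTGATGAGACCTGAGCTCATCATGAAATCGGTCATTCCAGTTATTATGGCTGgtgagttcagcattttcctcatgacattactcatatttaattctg
The vha-3 window is chrIV:2315612-2315812 on the minus strand.
vha-3: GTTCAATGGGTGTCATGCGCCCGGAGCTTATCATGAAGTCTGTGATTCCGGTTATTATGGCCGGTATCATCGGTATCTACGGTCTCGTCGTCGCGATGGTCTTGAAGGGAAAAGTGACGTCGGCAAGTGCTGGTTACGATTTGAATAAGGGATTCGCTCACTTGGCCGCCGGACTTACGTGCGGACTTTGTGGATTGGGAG
The vha-12 window is chrX:4191893-4192093 on the plus strand.
vha-12: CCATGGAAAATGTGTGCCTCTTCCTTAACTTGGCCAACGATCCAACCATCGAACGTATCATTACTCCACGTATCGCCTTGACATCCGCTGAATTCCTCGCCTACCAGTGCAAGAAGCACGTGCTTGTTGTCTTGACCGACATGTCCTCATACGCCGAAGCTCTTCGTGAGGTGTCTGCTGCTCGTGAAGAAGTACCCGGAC
The vha-13 window is chrV:14353263-14353463 on the plus strand.
vha-13: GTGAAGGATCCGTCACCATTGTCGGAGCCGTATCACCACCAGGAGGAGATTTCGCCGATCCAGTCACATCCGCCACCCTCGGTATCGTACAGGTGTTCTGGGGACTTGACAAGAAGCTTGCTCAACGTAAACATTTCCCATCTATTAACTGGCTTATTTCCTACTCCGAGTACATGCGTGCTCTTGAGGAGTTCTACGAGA
The vha-15 window is chrX:2238737-2238937 on the plus strand.
vha-15: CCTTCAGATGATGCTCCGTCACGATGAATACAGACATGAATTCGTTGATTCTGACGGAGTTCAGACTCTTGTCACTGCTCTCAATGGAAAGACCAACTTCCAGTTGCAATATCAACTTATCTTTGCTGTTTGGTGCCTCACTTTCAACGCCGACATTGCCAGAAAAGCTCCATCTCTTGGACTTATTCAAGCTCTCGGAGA

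Of these 5 windows, 4 consist of coding sequence alone, and the vha-2 window crosses from exon 1 into intron 1. The position of each summit in its coding sequence differed. In vha-2 it was codon 47 of 161, in vha-3 codon 78 of 161, in vha-12 codon 266 of 491, in vha-13 codon 422 of 606 and in vha-15 codon 225 of 470.

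The c subunit gene vha-2 held the strongest region of the 10 genes in the pooled list and in replicate 2. The gene (WBGene00006911) lies on chromosome III at 9782164 to 9783224, plus strand. Its main region, 9782123 to 9782486, had rank 13 in the pooled list with a signal of 141 and was an IDR peak. The summit, 9782305, lay in coding exon 1 of 3, 141 bp downstream of the 5′ end, and no other protein-coding gene contained it or had a nearer 5′ end. Replicate 1 had a summit 48 bp away at rank 446 (signal 51.3), and replicate 2 had one 3 bp away at rank 25 (signal 76.8). The region was thus among the top 1000 of both replicates, far higher in replicate 2.

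The neighbouring gene vha-1 (WBGene00006910, chromosome III, 9781254 to 9781763, plus strand) encodes another c subunit and ends 400 bp before vha-2 starts. Its single pooled summit, 9781762, fell in the stop codon, 508 bp downstream of the 5′ end, with rank 2908 and a signal of 74.9. The same summit lies 402 bp upstream of vha-2. Replicate 1 placed its summit 14 bp away at rank 104 (signal 60.7), which is higher than the rank 446 of the vha-2 summit in that replicate. In replicate 2 the nearest summit was that of vha-2 itself, 546 bp away, so no separate summit was listed at the end of vha-1. The replicate 2 summits assigned to vha-1 lay 1264 and 1485 bp upstream, inside sqv-3, at ranks 26311 and 15973. The pooled summits of vha-1 and vha-2 are 543 bp apart, and the replicate 1 summits 605 bp apart.

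In vha-3 (WBGene00006912, chromosome IV, 2315460 to 2315945, minus strand), a further c subunit gene and the shortest of the 10 at 486 bp, 3 pooled summits were assigned. The highest, 2315712, had rank 2578 and a signal of 76.4 and lay in its only exon. Replicate 2 had a summit at the same base at rank 1802 (signal 45.8), and replicate 1 had one 92 bp away at rank 10817 (signal 30.3). The other 2 pooled summits were upstream, at 360 bp (rank 3730, signal 71.9) and 564 bp (rank 14053, signal 54.3). Both are closer to the 5′ end of Y38F2AL.12, at 268 and 64 bp. They lie 204 bp apart, and the same replicate summits, rank 8868 in replicate 1 and rank 3310 in replicate 2, were within 200 bp of both, so they cannot be counted as separate replicated sites.

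The proteins of vha-2 and vha-3 were identical over all 161 residues, while their coding sequences were 85.1% identical, with 72 of 483 bases different and a longest identical run of 23 bases. The window of vha-2 covers codons 14 to 66 and that of vha-3 codons 45 to 112. In the 63 coding bases that both windows cover, 11 differed. The pooled summits lay 31 codons apart, so the 2 windows were not centred on the same codons. For scale, the replicate 1 summit of vha-3 lay 92 bp from the pooled one. No 36-base or 50-base word in the windows of the 18 pooled summits of the 10 genes occurred elsewhere in the genome. The length of the reads is not given in the sources used here. The vha-1 protein was 65.8% identical to both.

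The gene vha-4 (WBGene00006913, chromosome II, 7878082 to 7879316, minus strand) encodes the larger c″ subunit of the proton-carrying ring. Its highest pooled summit, 7879898, had rank 4340 and a signal of 70.0. It lay 582 bp upstream and inside T01H3.5, whose 5′ end is nearer at 282 bp. Replicate 2 had a summit 1 bp away at rank 1319 (signal 48.0), and replicate 1 had one 74 bp away at rank 28392 (signal 22.3). A second pooled summit in coding exon 2 of 4 stood near the bottom of the list, at rank 28344, with replicate 1 at 107 bp and the nearest replicate 2 summit at 256 bp.

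The a subunit genes vha-5, vha-6 and vha-7 had only low-ranked pooled summits or none. The a subunit forms the proton channels against which the c ring turns. In vha-5 (WBGene00006914, chromosome IV, 8303968 to 8307371), a subunit of the epidermis and excretory cell, the pooled summits were in intron 1 of 4 (8304120, rank 12016, signal 56.6) and in coding exon 2 of 5 (8305217, rank 21682, signal 47.6). The first had replicate 1 at 8 bp (rank 12001) and replicate 2 at 94 bp (rank 7813). The second had replicate 2 at 4 bp (rank 8830), with the nearest replicate 1 summit 1105 bp away.

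No pooled or replicate 1 summit was listed in the window of vha-6 (WBGene00006915, chromosome II, 11435210 to 11438452), the intestinal a subunit. Its only listed summit was that of replicate 2 in intron 1 of 5, at rank 25826 with a signal of 24.9, against a lowest listed signal of 23.3. In vha-7 (WBGene00006916, chromosome IV, 12640462 to 12650652), the longest of the 10 genes at 10191 bp, the pooled summits had ranks 22296 (3′ UTR, signal 47.2) and 27625 (intron 3 of 24, signal 43.6). The first was at rank 1893 in replicate 2, 27 bp away, with no replicate 1 summit within 1777 bp. The second was at rank 11718 in replicate 1, 19 bp away, with no replicate 2 summit within 3778 bp. The replicates thus placed their strongest vha-7 summits in different parts of the gene.

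**Figure D1:**
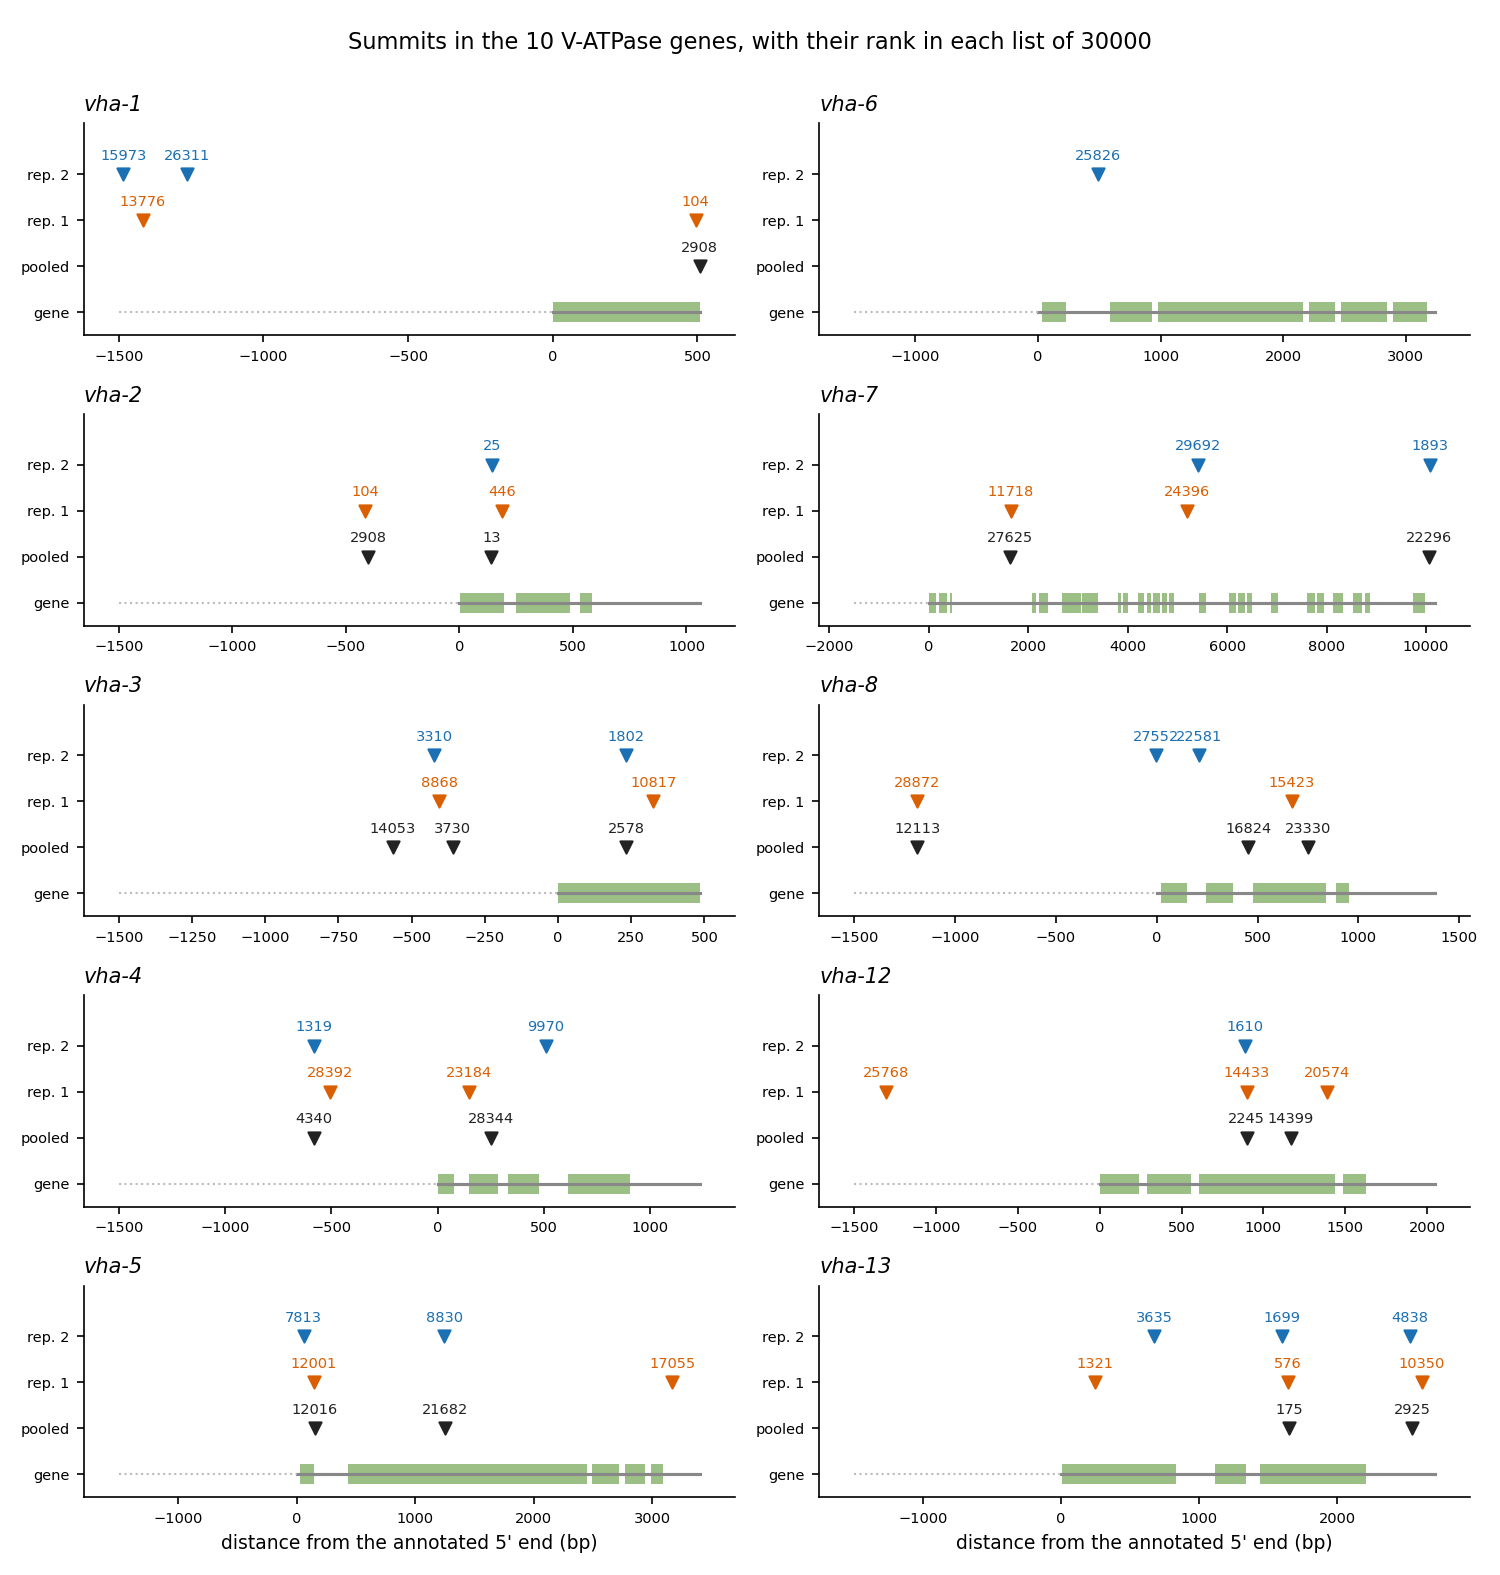
Summits of each list (triangles, by row, with their ranks) in the windows of the 10 genes, by distance in bp from the annotated 5′ end (horizontal axis); green boxes are coding exons and the dotted line is the sequence upstream. The vha-2 summit stands at rank 13 of the pooled regions, at 446 for replicate 1 and at 25 for replicate 2, and the vha-13 summit at 175, 576 and 1699 in that order.

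Among the V1 genes, vha-13 (WBGene00013025, chromosome V, 14351709 to 14354422, plus strand) held the strongest region. It encodes the A subunit, which carries the catalytic ATP-binding site. Its main region, 14353181 to 14353544, had rank 175 and a signal of 109 in the pooled list and was an IDR peak, near the end of the 182 IDR regions. The summit, 14353363, was in coding exon 3 of 3, 1654 bp downstream of the 5′ end, and 1047 bp from the 5′ end of Y49A3A.3, the nearest. Replicate 1 had a summit 12 bp away at rank 576 (signal 49.4) and replicate 2 one 54 bp away at rank 1699 (signal 46.2). A second pooled summit, 14354255, lay in the 3′ UTR at rank 2925 (signal 74.9) and 155 bp from the 5′ end of Y49A3A.3. Replicate 1 had it at rank 10350 and replicate 2 at rank 4838. In exon 1 the replicates listed different summits, at rank 1321 in replicate 1 (249 bp from the 5′ end) and rank 3635 in replicate 2 (675 bp), and the pooled list had none.

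The B subunit gene vha-12 (WBGene00006921, chromosome X, 4191094 to 4193144, plus strand) had its highest pooled summit in coding exon 3 of 4, at 4191993, with rank 2245 and a signal of 78.1. Replicate 1 had a summit at the same base, but at rank 14433 (signal 28.1), and replicate 2 had one 10 bp away at rank 1610 (signal 46.7). A further pooled summit in the same exon, at rank 14399, had no summit of either replicate within 200 bp. The gene vha-8 (WBGene00006917, chromosome IV, 6791074 to 6792455, plus strand) encodes the E subunit, part of the peripheral stalk that joins the sectors. Its 3 pooled summits had ranks 12113, 16824 and 23330. The first of these was 1187 bp upstream, inside C17H12.2 and 5 bp from the non-coding RNA gene C17H12.30. The others lay in intron 2 and in coding exon 3, and no vha-8 summit was matched in both replicates.

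Over the 10 genes, 2 had an IDR peak (vha-2 and vha-13), against 1.25% of all protein-coding genes. The same 2 had a pooled summit among the top 1000, against 5.65% of all genes. A pooled summit of any rank was found in 9 of the 10 genes, against 68.8% of all genes, so a listed summit alone says little about a gene. In replicate 1 the top 1000 reached 3 of the 10 genes, namely vha-1, vha-2 and vha-13, against 5.62% of all genes, and the first 2 of these share the rank 104 summit at the end of vha-1. In replicate 2 it reached vha-2 alone, against 5.54%. The gene vha-2 was also the only one of the 10 with a top 1000 summit in both replicates, against 1.74% of all genes. These shares over all genes are the background and were not tested against the 10 genes, since the genes were picked for their ranks.

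The median best rank was 3624 for the 10 genes and 16798 for all protein-coding genes in the pooled list. It was 11859.5 for the 10 genes and 16432 for all genes in replicate 1, and 1847.5 for the 10 genes and 16932 for all genes in replicate 2. Genes without a listed summit enter these and the later medians as ranked last. A summit was listed for 9 of the 10 genes in the pooled list, for 9 in replicate 1 and for 10 in replicate 2. In replicate 2 the best rank was 25 for vha-2 and between 1319 and 1893 for vha-3, vha-4, vha-7, vha-12 and vha-13. In replicate 1 it was 104 for vha-1 and vha-2, 576 for vha-13, and 8868 or beyond for the others with a summit. The best rank was nearer the top in replicate 2 for 7 genes and in replicate 1 for 3. The windows were not larger than usual, with a median gene length of 1716.5 bp for the 10 genes and 2027 bp for all, and held 0.46 summits per kb against 0.32.

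By sector, the median best pooled rank was 4340 for the 7 V0 genes, with vha-6 ranked last, and 2245 for the 3 V1 genes. In replicate 1 the order was reversed, with 11718 for V0 and 14433 for V1. In replicate 2 the medians were close, at 1893 and 1699. A pooled summit was listed for 6 of the 7 V0 genes. Each sector held 1 gene among the top 1000. The V0 windows held 12 pairs of a gene and a summit (0.392 per kb) and the V1 windows 7 (0.657 per kb). With 7 and 3 genes, and ranks within each sector that spread from the top 200 to beyond 10000, the sectors overlapped. Within V0, the c and c″ genes had best pooled ranks of 13 to 4340, and the a genes of 12016 and 22296 or none. The 4340 is the vha-4 summit upstream, inside T01H3.5. In the vha-4 gene itself the only pooled summit had rank 28344, beyond both a genes with a summit, so with gene bodies alone the c and c″ genes did not stand apart from the a genes.

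**Figure D2:**
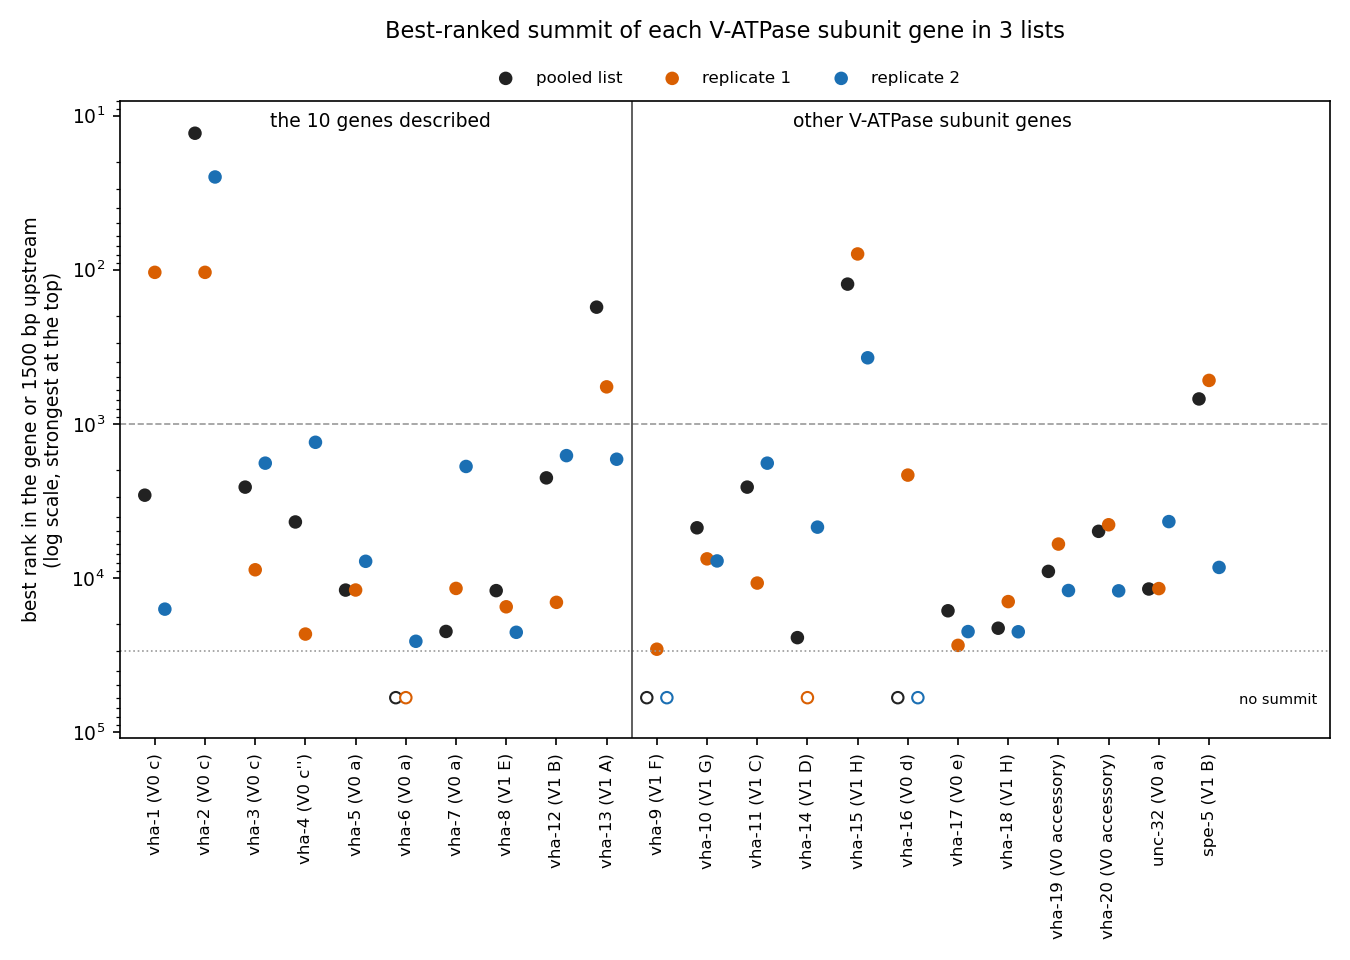
Best rank in the gene or 1500 bp upstream (vertical log axis, strongest at the top) for each subunit gene (horizontal axis), with a colour for each of the pooled, replicate 1 and replicate 2 lists; open circles mark genes without a summit in that list, the dashed line rank 1000 and the dotted line rank 30000. Among the 10 genes on the left vha-2 and vha-13 lie above the dashed line in the pooled list, and on the right vha-15 and spe-5.

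The other 12 subunit genes served as the rest of the complex. A pooled summit was present in 10 of them, against 68.8% of all protein-coding genes. Among the top 1000 were 2, vha-15 and spe-5, against 5.65% of all genes. The gene vha-15 (WBGene00020507, chromosome X, 2237911 to 2240255), which encodes the regulatory H subunit, held an IDR peak at rank 124 with a signal of 113. Its summit was in exon 6 of 8, 926 bp from the 5′ end, and ranked 79 in replicate 1 (42 bp away) and 373 in replicate 2 (8 bp away). It was the only subunit gene besides vha-2 with a top 1000 summit in both replicates. The gene spe-5, a B subunit paralog needed for sperm formation, had rank 690 (signal 92.4) in coding exon 3 of 4, with best ranks of 523 in replicate 1 and 8561 in replicate 2. Its protein was 85.1% identical to that of vha-12 and its coding sequence 75.0%, and as in vha-12 the highest summit lay in a coding exon.

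The remaining subunit genes ranked lower. The G subunit gene vha-10 had a best pooled rank of 4735 and the accessory subunit genes vha-20 and vha-19 had 4992 and 9085. The neuronal a subunit gene unc-32 had 11822, the e subunit gene vha-17 had 16368, the second H subunit gene vha-18 had 21243 and the D subunit gene vha-14 had 24456. The C subunit gene vha-11 had 2578, but this is the vha-3 exon summit, which falls in its upstream window because the genes are 892 bp apart. The vha-10 summit of rank 4735 lay 1032 bp upstream, inside trpp-8, and in vha-10 itself the only pooled summit had rank 28761. The vha-17 summit lay 1292 bp upstream, inside F49C12.12, and the vha-14 summit 770 bp upstream. No pooled summit was listed for the F subunit gene vha-9 or the d subunit gene vha-16, which had best replicate 1 ranks of 29076 and 2154 and none in replicate 2. The median best pooled rank was 3624 for the 10 genes and 10453.5 for these 12. In replicate 2 it was 1847.5 and 10326. In replicate 1 the order was reversed, with 11859.5 for the 10 genes and 9175 for the 12. Over all 22 subunit genes, which include the 10 selected on their ranks, 4 were among the top 1000 and 3 had an IDR peak. The shares over all protein-coding genes were 5.65% and 1.25%. The median best pooled rank of the 22 was 7038.5, against 16798 for all genes.

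Lists of related genes were set beside them. Over all protein-coding genes, 5.65% had a pooled summit among the top 1000 and 1.25% had an IDR peak. Of 22 lysosomal and nutrient-sensing genes, 3 had a pooled summit among the top 1000: rbc-2, a rabconnectin that assists V-ATPase assembly in other species (rank 361), cup-5, the lysosomal mucolipin channel (rank 788), and hlh-30, the TFEB transcription factor that controls lysosomal genes (rank 996). None of the 22 had an IDR peak. These genes are longer, with a median of 2955 bp, and held 0.414 summits per kb. Of 9 genes of the mitochondrial ATP synthase, the rotary enzyme related to the V-ATPase, 2 were among the top 1000: atp-2, the beta subunit (rank 11, with ranks 39 and 16 in replicates 1 and 2), and asb-2 (rank 260, with 343 and 242). Both were thus in the top 1000 of both replicates, as was 1 of the 10 V-ATPase genes. Of the 9 genes, 1 had an IDR peak, atp-2. Their windows held 0.664 summits per kb, against 0.46 for the 10 V-ATPase genes. The median best pooled rank was 3624 for the 10 V-ATPase genes, 5639.5 for the lysosomal genes and 3107 for the ATP synthase genes. In replicate 1 these medians were 11859.5, 5587.5 and 2334, so the 10 genes ranked behind both lists. In replicate 2 they were 1847.5, 12065 and 3525, with the 10 genes ahead of both.

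Agreement between replicates was measured as a replicate summit within 200 bp of a pooled summit. Of the 18 pooled summits of the 10 genes, 14 had a replicate 1 summit in reach and 11 a replicate 2 summit. Both replicates matched 9, or 50% (exact 95% binomial interval 26.0 to 74.0, for counting error only), beside 43.5% of all 30000 pooled summits. The shares were not tested against each other, and the summits are not independent. Neither replicate matched 2, in vha-8 and vha-12, while 5 were matched in replicate 1 only and 2 in replicate 2 only. Of the 9 matched in both, 8 ranked nearer the top in replicate 2, the exception being the vha-13 exon summit, against 50.3% of the 13046 pooled summits matched in both. The vha-3 upstream summits, which share their replicate summits, count as 2 of these 8.

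**Figure D3:**
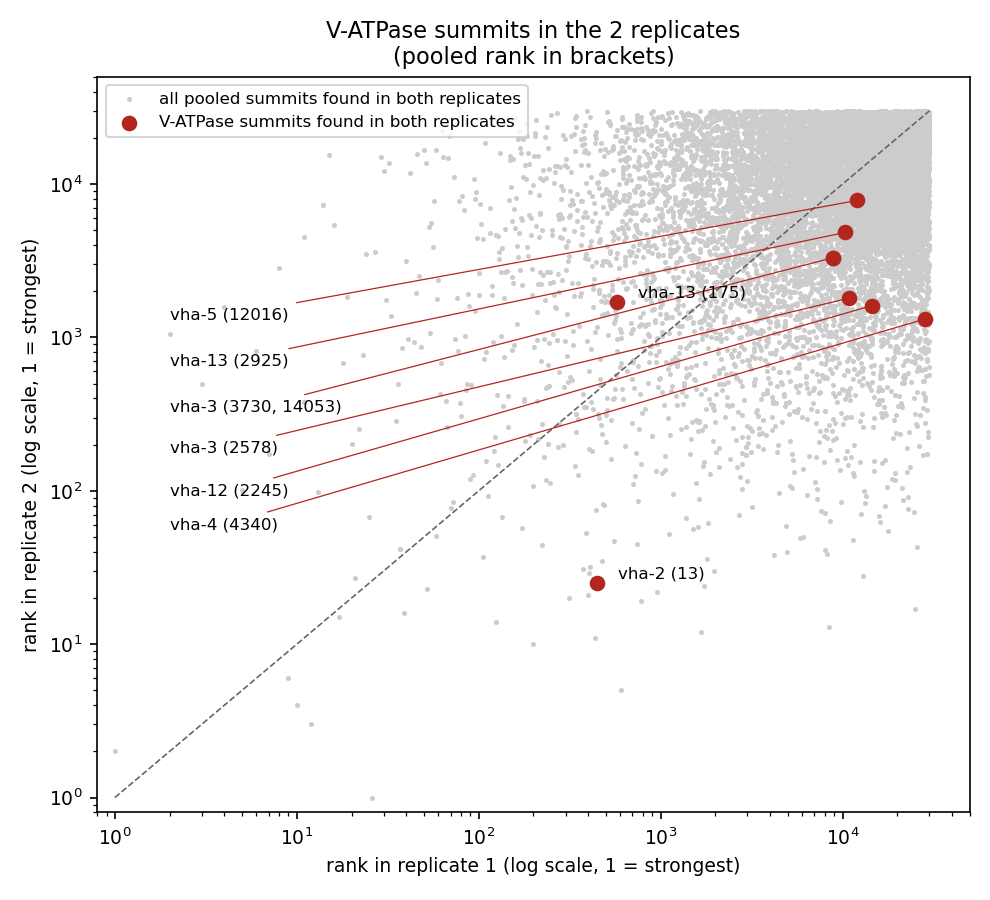
Rank in replicate 1 (horizontal log axis) against rank in replicate 2 (vertical log axis) for all pooled summits matched in both replicates (grey) and for those of the V-ATPase genes (red, pooled ranks in brackets); the dashed line marks equal ranks. All red points but vha-13 (175) lie below the line, and only vha-2 (13) is among the top 1000 on both axes.

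Of the 19 pairs of a gene and a summit, 9 lay in a coding exon of the gene, 3 in an intron, 2 in a 3′ UTR, 0 in a 5′ UTR and 5 upstream. The coding share was 47.4% (exact 95% binomial interval 24.4 to 71.1, for counting error only), beside 31.6% of the 30207 pairs over all protein-coding genes. Coding sequence made up 36.3% of the windows of the 10 genes. These shares were not tested against each other, and the vha-1 stop codon summit counts as coding for vha-1 and as upstream for vha-2. Both summits among the top 1000 were in coding exons, as were the best pooled summits of vha-1, vha-3 and vha-12. The 31.6% covers pairs of every rank, and no coding share over all top 1000 summits is given here to set beside these. Upstream summits were 26.3% of the pairs, against 30.8% over all genes. Of those 5, 3 lay inside another protein-coding gene, namely vha-1, T01H3.5 and C17H12.2, and the other 2 were the vha-3 summits nearer to Y38F2AL.12. Each upstream summit thus lay in another protein-coding gene or nearer to the 5′ end of one. Over the other 12 subunit genes the coding share was 36.4%.

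Base composition differed with the position of the summit. Within 100 bp, GC content was 38.9 ± 9.24% (SD, n = 18 summits) for the 10 genes and 35.7 ± 7.73% for all 30000 pooled summits, a difference that was not tested. For the 9 summits in coding exons it was 46.2 ± 4.88%, between 38.8% in vha-1 and 52.2% in vha-3, against 41.0 ± 6.48% for all pooled summits in coding exons (n = 9534). For the 9 summits elsewhere it was 31.6 ± 6.27% against 33.3 ± 6.99% (n = 20466). The vha-2 window had 46.8% GC and vha-13 50.7%, beside 39.6 ± 8.23% for the top 1000 pooled summits of any position, so vha-2 was within 1 SD of that mean. The vha-12 window, at rank 2245, had 51.7%, beside 37.7 ± 7.91% at ranks 1001 to 3000. All of these summits lay in coding exons, for which the mean over all ranks was the 41.0 ± 6.48% given above. Over the whole pooled list the mean GC content was 41.8% at ranks 1 to 100 and 34.9% at ranks 20001 to 30000. The part of base composition in the ranks was not tested.

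**Figure D4:**
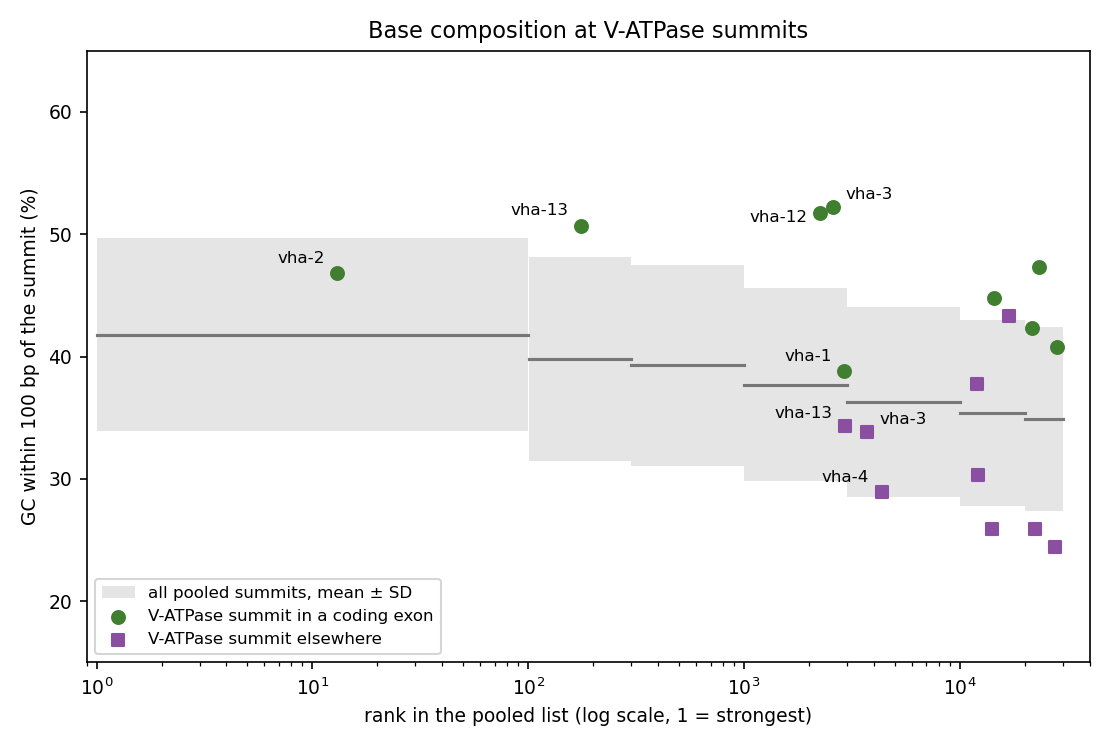
GC content in percent within 100 bp of the 18 pooled summits of the V-ATPase genes (vertical axis) by pooled rank (horizontal log axis), in coding exons (circles) or elsewhere (squares); grey bands give the mean ± SD of all pooled summits by rank. Coding exon summits lie between 38.8% and 52.2% and the others between 24.4% and 43.3%.

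Known motif letters were searched on both strands within 100 bp of each summit, with overlapping matches allowed. TAATTA, a core read by homeodomains of the paired class to which aristaless proteins belong, was present at 1 of the 18 summits (5.56%), the vha-4 summit of rank 4340, against 10.4% of all pooled summits and 7.1% of the top 1000. The palindromic form, TAAT followed after 3 bases by ATTA, was at none of the 18, against 1.18% of all. In the printed windows of vha-2, vha-3, vha-12, vha-13 and vha-15 neither occurs. CACGTG, an E-box of the kind bound by HLH-30, was at 3 summits (16.7%), the upstream vha-3 summits of ranks 3730 and 14053 and the vha-12 exon summit, against 4.01% of all; in the printed vha-12 sequence it starts at base 117. TGATAA, the letters read by GATA factors, was also at 3 summits (16.7%), 2 at vha-3 and 1 at vha-4, against 19% of all; in the printed vha-3 sequence it starts at base 28 on the reverse strand. These counts are small and describe letters, not binding.

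Just inside the window limit, the pooled summit farthest upstream was that of vha-8 at 1187 bp (rank 12113). Just outside, the nearest was 1509 bp upstream of vha-1 at rank 4474, followed by 2129 bp upstream of vha-8 at rank 3757. In replicate 2 the vha-1 summits at 1485 bp (rank 15973) and 1686 bp (rank 9935) lay on either side of the edge.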

How the data were processed

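ChIP-seq was analysed in 1 group of 2 biological replicates of whole L1 larvae, from region lists deposited in ce11. Per the deposited text files, a replicate's list was made from its own alignments with a control, the pooled list from both sets of alignments, and the IDR list from these 3. What aligner, caller, settings and IDR threshold were used is not given in the sources used here. The control was not analysed here. The signal value is the authors', relative to the control, and served only for ranks within a list. The deposited −log10 q-value field was constant within each list and was not used. Regions were 364 bp wide in the pooled and IDR lists, 344 bp in replicate 1 and 384 bp in replicate 2, with the summit at the centre.

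Genes came from Ensembl release 115 annotation and sequence from the RefSeq WBcel235 genome. A window was the gene and 1500 bp upstream. Position was assigned in the order coding exon, 5′ UTR, 3′ UTR, other exon, intron, upstream. Stop codons counted as coding, a choice made after seeing that a vha-1 summit falls in one. Exon numbers are those of the transcript with the longest coding sequence. Ranks of 1000 or better were called top. Subunit roles are background knowledge. The members and lists were chosen with earlier results of these data known, so all values are descriptive. Named genes were the 10 genes, the other 12 subunits, lysosomal and ATP synthase genes ranked 1000 or better, and genes at the top summits; other neighbours were named after their values were seen. Assignment was tested on simulated data. Tools were Python 3.11.15, numpy 2.4.6, pandas 2.3.3, scipy 1.17.1, matplotlib 3.10.9 and Biopython 1.88.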

Additional observations from a re-analysis of the deposited data

How the results depend on the processing

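Of 51 alternative values for 10 results, 43 stayed within 1.5 times a count or within the stated spread, and 8 moved. The median best pooled rank of the 10 genes was 7462 with the gene body alone and 7462 with 500 bp upstream, against 3624 with 1500 bp. With 1 replicate left out, the other replicate's own list took the place of the pooled list, which was not remade. The median best rank in that list was 1847.5 (without replicate 1) or 11859.5 (without replicate 2), the same values as in the Results. The number of genes among the top 1000 was then between 1 and 3, against 2, and that of the other subunit genes between 1 and 2. At a limit of rank 500 it was 1 for the other subunit genes, against 2. Among top 1000 summits alone the coding share was 100%, from 2 summits, with no share over all top 1000 summits to set beside it. Leaving stop codons out of the coding exons, an alternative chosen after seeing the data, gave 42.1% against 47.4%. Both replicates matched 8 summits at 100 bp and 12 at 500 bp, against 9 at 200 bp. The causes were not tested. No paired analysis was possible because there is 1 group. Depth, read length and control signal are not known from the lists, 2 replicates give no spread for a rank, and a list of 30000 regions truncates low signal, which limits what can be said of vha-6 and the low-ranked summits.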
